A study of Mus musculus with 2 samples.

Results

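Accessible chromatin inside protein-coding exons, away from promoters, was described in late retinal progenitor cells (late RPCs), which still divide in the mouse retina after birth. Peaks were taken when their summit, the point of highest signal, lay inside a coding sequence of the GENCODE M21 basic annotation. The summit also had to lie more than 3 kb from every transcript start of that annotation, which leaves out some starts of the comprehensive one. The control list held 1342 such peaks among 117165, and the Ngn3-OE list held 1459 among 124935. Merged over both lists, they formed 1882 separate loci in 1537 genes or overlapping gene pairs. The coding sequence of Neurog3 itself was left out, because the introduced plasmid carries it.

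Both groups were late RPCs that received plasmid DNA by in vivo electroporation on postnatal day 1 and were sorted for GFP at day 2 after electroporation. The study reports that, at that day, a smaller share of GFP-positive cells carried Ki67, a marker of dividing cells, in Ngn3-OE than in control. The control group received a control plasmid, and the Ngn3-OE group a plasmid for overexpression of Neurog3 (Ngn3). No strain or sex was given in the sources used here. Each group was 1 library from a single biological sample of 50000 sorted cells, so no test of the condition was possible, and all intervals below are 95% intervals for counting error only. In such mixed cells, fewer cells with an open site and a lower signal per cell cannot be told apart. Of the progenitor and glial marker genes, 31 of 34 had a control peak within 1 kb of a transcript start, against 30 of 34 in Ngn3-OE. The same was found for 45 of 48 photoreceptor genes in each library, and for 19 and 25 of 1092 olfactory receptor genes. The share over all genes was not computed, so these counts do not test the tissue label.

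ATAC-seq uses the Tn5 transposase, which inserts where nucleosomes leave the DNA free, so open sites collect sequenced fragments. Most open sites outside promoters are enhancers in introns or between genes. Some exons carry a regulatory code on top of the protein code, because a transcription factor site can be read within codons. Neurog3 is a proneural basic helix-loop-helix (bHLH) factor that binds E-box sites, and SOX factors are known for maintaining progenitors and Müller glia. CTCF is a zinc finger factor that binds long sites and holds chromatin loops.

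The strongest peaks found in both libraries show what such a site looks like on the mm10 reference. The 151 bases around the control summit are printed for the 3 strongest, on the strand of the gene, 5′ to 3′, with coding bases in capitals.
Tacr2, chr10:62261226-62261376, plus strand: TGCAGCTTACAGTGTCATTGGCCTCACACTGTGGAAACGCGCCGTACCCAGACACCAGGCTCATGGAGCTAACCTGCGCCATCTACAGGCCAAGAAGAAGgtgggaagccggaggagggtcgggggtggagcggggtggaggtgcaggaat
Sh2d3c, chr2:32751439-32751589, plus strand: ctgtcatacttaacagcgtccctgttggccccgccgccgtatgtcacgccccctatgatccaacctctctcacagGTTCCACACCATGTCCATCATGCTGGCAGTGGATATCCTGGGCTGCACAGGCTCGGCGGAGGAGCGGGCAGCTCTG
Mon2, chr10:123013530-123013680, minus strand: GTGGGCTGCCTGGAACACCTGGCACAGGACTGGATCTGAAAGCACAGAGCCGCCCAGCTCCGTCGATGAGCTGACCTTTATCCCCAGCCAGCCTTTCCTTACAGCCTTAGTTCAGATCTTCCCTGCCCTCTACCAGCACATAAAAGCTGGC
The Tacr2 window runs from the third coding exon into the next intron, with 100 coding bases. The Sh2d3c summit is the first base of the ninth coding exon, and 76 of its 151 bases are coding. The Mon2 window lies wholly in a coding exon of 623 bp.

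Distal coding exon peaks were few but not rarer per base than other distal peaks. They made up 1.15% of the control list (1.08 to 1.21) and 1.17% of the Ngn3-OE list (1.11 to 1.23). Over the 25.2 Mb of coding sequence more than 3 kb from transcript starts, this was 53.3 peaks per Mb in control (50.4 to 56.2) and 57.9 in Ngn3-OE (54.96 to 60.9). Distal introns held 45.5 and 49.6 peaks per Mb, and distal intergenic sequence 25.6 and 26.8. Coding exons therefore held 1.17 times the density of introns in both libraries. When the distance was set to 10 kb, the ratio to introns was 1.10 in control and 1.04 in Ngn3-OE.

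Density differed with the length of the exon. In control, exon segments of up to 100 bp held 32.8 peaks per Mb of coding sequence (27.2 to 39.3), while those of 501 to 1000 bp held 79.6 (68.2 to 92.4). Segments over 1000 bp stood lower again, at 47.3 per Mb (40.3 to 55.04). The Ngn3-OE list gave 33.9, 89.3 and 49.5 per Mb for the same classes. The median exon that held a peak was 199.5 bp long in control and 201 bp with Ngn3-OE. The median segment of this territory, weighted by its bases, was 174 bp. Peaks were also denser in last coding exons, at 79.8 per Mb in control (71.4 to 89.0), than in internal ones, at 47.2 (44.2 to 50.3). In Ngn3-OE these values were 81.3 and 52.2 per Mb.

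**Figure D1:**
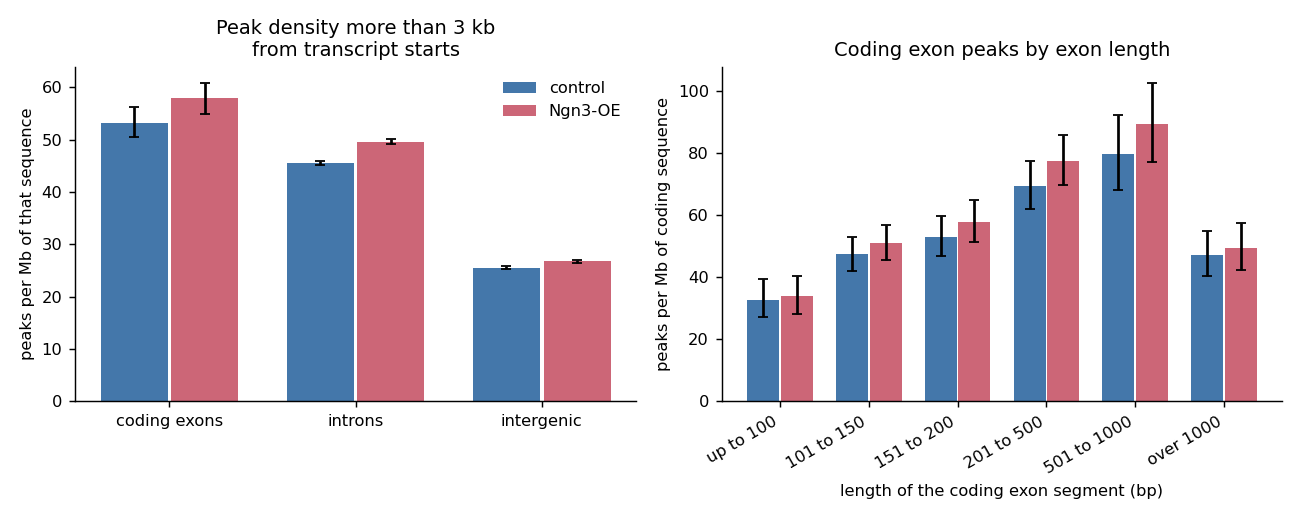
Peaks per Mb of sequence more than 3 kb from transcript starts, for coding exons, introns and intergenic sequence (left), and for coding exons by segment length in bp (right). Bars are the counts of the control and Ngn3-OE libraries divided by the available sequence, and error bars are exact 95% Poisson intervals. Coding exons stand slightly above introns, and exon segments of 501 to 1000 bp reach 79.6 and 89.3 peaks per Mb.

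Within the exon, summits lay near the segment edges slightly less often than coding bases of exons of like length. Of the control peaks, 46.9% (44.2 to 49.6) had their summit within 50 bp of an exon segment edge, and of the Ngn3-OE peaks 45.1% (42.5 to 47.7), against 54.9% of all coding bases in the territory. Most of that gap went with exon length, since coding bases weighted to the length classes of the exons with peaks gave 49.8% and 49.4%. In internal exons, 47.0% of control summits (43.7 to 50.3) and 46.7% of Ngn3-OE summits (43.6 to 49.8) lay on the 5′ side of the midpoint. The whole peak was coding in 637 control and 720 Ngn3-OE peaks, which is 47.5% and 49.3%. The median width was 123 and 122 bp, and that of distal intron peaks 122 and 120 bp.

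The peaks were low. The median peak had 8 tags at its summit in both libraries, where tags are the read ends that the peak caller piled up there, solved from its fold and p-value, and distal intron peaks had 7. The highest reached 81 tags in control and 91 in Ngn3-OE. The most strongly ranked 10% of each whole list included 3.43% of the control and 3.15% of the Ngn3-OE coding exon peaks, against 3.95% and 4.48% of the distal intron peaks. The distance to the nearest transcript start had a median of 12060 bp in control and of 11423 bp in the Ngn3-OE list. Coding exon summits at 2 to 3 kb, just outside the limit, had a median of 11 tags in both libraries, and those at 3 to 4 kb, just inside it, had 9 in control and 10 in Ngn3-OE.

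The DNA under the peaks was rich in G and C. Over the 201 bases centred on the summit, the median GC content was 57.7% in both libraries, against 49.8% in distal intron peaks. The middle of ordinary coding exon segments in the same territory had 49.3%, and the middle of introns 43.8%, each below the peaks of its class. With a GC content of at least 50% and at least 0.6 of the CpG pairs expected from it, 393 control peaks (29.3%) and 427 Ngn3-OE peaks (29.3%) were rich in CpG. The same held for 18.1% and 17.6% of all peaks, 49.9% and 48.9% of promoter peaks, and 2.45% and 2.36% of distal intron peaks. Ordinary sequence at the midpoints was CpG-rich in 4.69% of coding exon segments and in 0.37% of introns, so both classes of peaks stood above their own background. The CpG-rich control peaks had a median of 10 tags and 146 bp, and the others 7 tags and 116 bp. They lay nearer to transcript starts, at a median of 7939 bp against 14513 bp, and 42.2% were in exons over 500 bp long, against 18.1% of the others.

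Of the control peaks, 1054 overlapped an Ngn3-OE peak and 288 did not. Of the Ngn3-OE peaks, 1037 overlapped a control peak and 422 did not. The share with a counterpart was 78.5% (76.2 to 80.7) in control and 71.1% (68.7 to 73.4) in Ngn3-OE. Over all peaks, control-only peaks made up 21.7% of the control list and Ngn3-OE-only peaks 26.6% of the Ngn3-OE list, against 21.5% and 28.9% of the coding exon peaks. In the control list, coding exon peaks were shared more often than distal intron peaks, by 3.60 percentage points (1.29 to 5.75), and in the Ngn3-OE list by 2.25 points (-0.17 to 4.55). With intron peaks reweighted to the tags of the coding exon peaks, their shares were 76.2% and 70.2%. Of the 1054 counterparts, 912 also had their summit in a distal coding exon, 114 in an intron, 27 in another exon and 1 near a transcript start.

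Sharing followed signal. Control peaks with 1 to 3 tags were shared in 35 of 105 cases, which is 33.3% (24.4 to 43.2). Those with 9 to 15 tags were shared in 314 of 344 cases, 91.3% (87.8 to 94.0). All 162 control peaks with 16 to 25 tags and all 100 with more had a counterpart. In the Ngn3-OE list this held for 166 of 171 and 114 of 115. CpG-rich peaks were shared in 86.8% of cases in control (83.0 to 89.96) and the others in 75.1% (72.3 to 77.9). In Ngn3-OE these shares were 76.6% (72.3 to 80.5) and 68.8% (65.9 to 71.6).

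**Figure D2:**
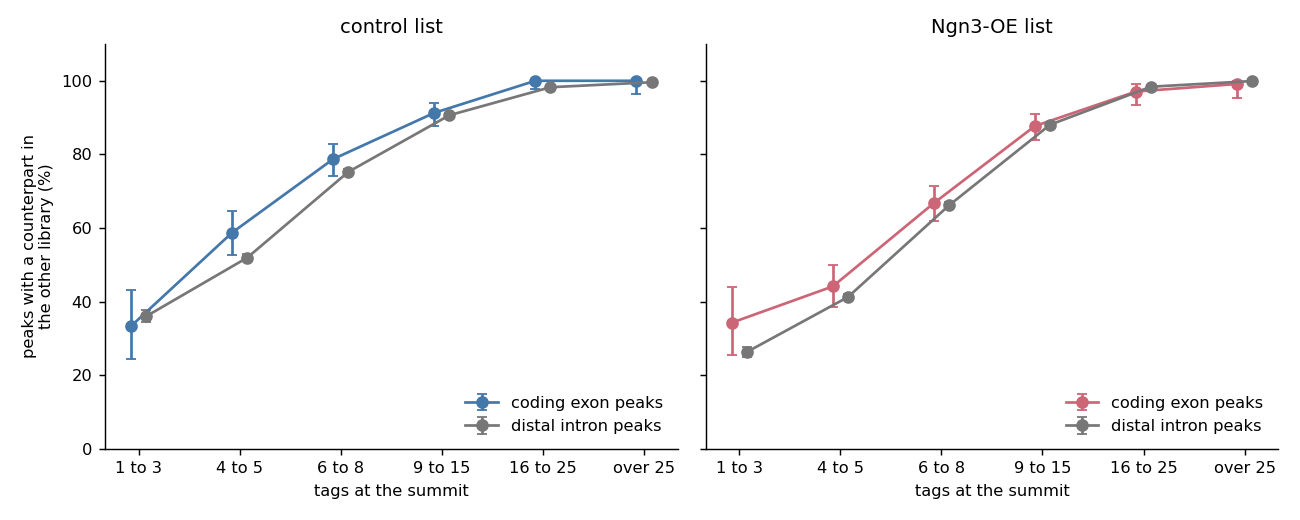
Percent of peaks that overlap a peak of the other library, by tags at the summit, for coding exon peaks (coloured) and distal intron peaks (grey) of the control list (left) and the Ngn3-OE list (right). Points are single-library shares and bars exact 95% binomial intervals. Coding exon peaks stand at 33.3% and 34.3% at 1 to 3 tags, and at 100% and 99.1% above 25 tags.

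Ngn3-OE-only coding exon peaks outnumbered control-only ones, with a log2 ratio of 0.55 (0.34 to 0.77), against 0.39 over all peaks (0.36 to 0.41) and 0.48 for promoter peaks (0.42 to 0.53), and both values lie inside the interval of the coding exon peaks. The log2 ratio of one-library peaks was 0.44 in distal introns (0.40 to 0.47) and 0.25 in distal intergenic sequence (0.21 to 0.29). The Ngn3-OE list was longer for every class, by 0.12 on the log2 scale for coding exon peaks. With peaks and counterparts both limited to the 50000 strongest of each list, the ratio was -0.091. It rested on 254 peaks and no interval was computed, so its sign is not read as a reversal. Control-only peaks had a median of 5 tags and 81 bp, and shared control peaks 9 tags and 139 bp. Ngn3-OE-only peaks had 5 tags and 80 bp, and shared ones 10 tags and 144 bp.

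The 6 strongest shared peaks, by −log10 q in control, were high in both libraries. Tacr2, the neurokinin A receptor, had 71 tags in control and 59 in Ngn3-OE at chr10:62261136-62261455. Sh2d3c, which encodes an SH2-domain adaptor, had 64 and 73 tags at chr2:32751411-32751598. At Mon2, which acts in endosome to Golgi transport, 70 and 91 tags were found in the twenty-sixth of 34 coding exons, at chr10:123013451-123013778. For these 3 the interval of the ratio included 1. Kank3, a regulator of the cytoskeleton, had 66 and 55 tags at chr17:33817436-33817827, with an E-box consensus near the summit. Asb2, a substrate adaptor of a ubiquitin ligase, had 69 and 76 tags at chr12:103325461-103325758 and matched the CTCF consensus. Sptbn4, the spectrin of axon initial segments, had 66 and 68 tags at chr7:27361403-27361746. For the other 3 the ratios of Ngn3-OE to control tags were 0.83 (0.57 to 1.21), 1.10 (0.78 to 1.55) and 1.03 (0.72 to 1.47).

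Among the peaks seen in control alone, the highest −log10 q was at Adamts20, a secreted metalloprotease, with 12 tags at chr15:94325971-94326195. Rnf141, a RING finger protein, also had 12 tags at chr7:110821277-110821481, with a SOX-type site in the adjoining intron. Mtrex, the helicase of the nuclear RNA exosome, had 11 tags at chr13:112909787-112909894. These 3 were followed by F5, coagulation factor V, and Plagl1, an imprinted zinc finger gene, with 10 tags each, a value that Odaph shared. No control-only coding exon peak had more than 15 tags.

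The strongest peak seen in Ngn3-OE alone was at Scn8a, the sodium channel Nav1.6 of central axons, with 16 tags in the twentieth of 26 coding exons, at chr15:101024312-101024555. Abca13, a lipid transporter, had 14 tags at chr11:9269176-9269381 and an E-box consensus. Npas2, a bHLH-PAS factor of the circadian clock, had 12 tags in its last coding exon, at chr1:39361929-39362076. These sites had local backgrounds of 0.26 to 0.28 tags. Ccn4, a secreted matricellular protein, had 27 tags at chr15:66906513-66906648, but over a background of 3.21 tags. Arhgef19, a guanine nucleotide exchange factor, had 11 tags at chr4:141254346-141254494. None of these 10 named one-library peaks had a near-identical copy elsewhere in the genome, and 33 control and 26 Ngn3-OE peaks in all had one.

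Among the 1054 shared control peaks, 530 had more tags in Ngn3-OE, 413 had fewer and 111 had the same number. Their tags added up to 1.06 times as many in Ngn3-OE as in control, against 1.09 times for distal intron peaks and 1.05 times for promoter peaks. Tags were not scaled between the libraries. The median peak ranked 0.97 percentile points higher in the Ngn3-OE list than in control, against 0.96 for all shared peaks and 2.40 for distal intron peaks, and the quartiles of the shift were -9.60 and 13.08 points.

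To look for large differences, pairs with 20 or more tags in all and summits within 100 bp were taken, which left 503 coding exon pairs. In 26 of them (5.17%, 3.40 to 7.48) Ngn3-OE had at least 2-fold more tags, against 5.03% of all such shared peaks and 7.88% in distal introns. In 25 of them (4.97%, 3.24 to 7.25) it had at least 2-fold fewer, against 4.67% of all and 6.74% in distal introns. The shares of coding exon pairs were thus near those of all shared peaks. The ratio's interval left out 1 for 11 of the 26, 14 of the 25 and 8 of the other 452, in all 33 of 503 pairs (6.56%). As the 26 and 25 were chosen by this ratio, their intervals are a description. The same share was not computed over all shared peaks or distal intron pairs, so the 6.56% cannot be set against a background. An E-box consensus was near the summit in 2 of the 26 and 1 of the 25, and a SOX-type site in 1 and 2, against 5.97% and 6.42% of the other 452 pairs. The CRX-type letters GGATTA were near the summit in 5 of the 26 (19.2%, 6.55 to 39.4) and 0 of the 25 (0 to 13.7%), against 7.96% of the other pairs.

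The widest gap in tags among the pairs with 2-fold fewer was at Kdr, the receptor for vascular endothelial growth factor, at chr5:75952206-75952900. It had 61 tags in control and 15 in Ngn3-OE with the same summit base, a ratio of 0.25 (0.13 to 0.44). The 201 bases around that summit are shown with the seventeenth coding exon in capitals, whose 136 bases lie wholly inside.
Kdr, chr5:75952256-75952456, minus strand: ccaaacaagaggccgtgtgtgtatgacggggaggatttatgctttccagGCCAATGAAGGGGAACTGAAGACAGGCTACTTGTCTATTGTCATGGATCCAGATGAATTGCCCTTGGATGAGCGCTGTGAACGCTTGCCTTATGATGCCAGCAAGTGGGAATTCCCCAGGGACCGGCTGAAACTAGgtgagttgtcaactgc
Lower ratios but far fewer tags were found at Kif1b, a kinesin of axonal transport, and at Ghrhr, the receptor for growth hormone releasing hormone, each with 18 tags in control and 4 in Ngn3-OE. Ccl25, a chemokine, had 23 and 7 tags, Mrc2, an endocytic collagen receptor, 28 and 10, and Tnfrsf25, a death receptor, 18 and 6.

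In the other direction, Celf4, an RNA-binding protein of neurons, had 5 tags in control and 20 in Ngn3-OE, with an E-box consensus near the summit. Anks6 had 6 and 19 tags, Arhgap4, a GTPase-activating protein, 7 and 21, Uqcc1, an assembly factor of respiratory complex III, 7 and 20, and Cep250, a centrosome linker protein, 6 and 17. These genes, too, were taken for the size of their ratio. By rank, the largest upward shifts among pairs with at least 10 tags in both lists were at Prrt4, Zfp697 and Obsl1. In these pairs the control peak was not the strongest one that the Ngn3-OE peak overlapped, so the size of the shift depends on the pairing. A minor control peak of 11, 12 and 10 tags was set there against an Ngn3-OE peak of 41, 61 and 27 tags, which also overlapped a stronger control peak of 51, 46 and 25 tags. In 15 of the 1054 pairs the Ngn3-OE peak had another control peak as its strongest overlap. In the other 1039 pairs, a choice made after the values were seen, the largest upward shifts were at Lhx2 (16 and 35 tags), at an exon of Chd7 (10 and 17) and at Ppp1r10, a phosphatase subunit (11 and 25). The largest downward shifts were at Rtn4rl2, a relative of the Nogo receptor (17 and 10 tags), another exon of Chd7, which encodes a chromatin remodeller (32 and 15), and Kdr.

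**Figure D3:**
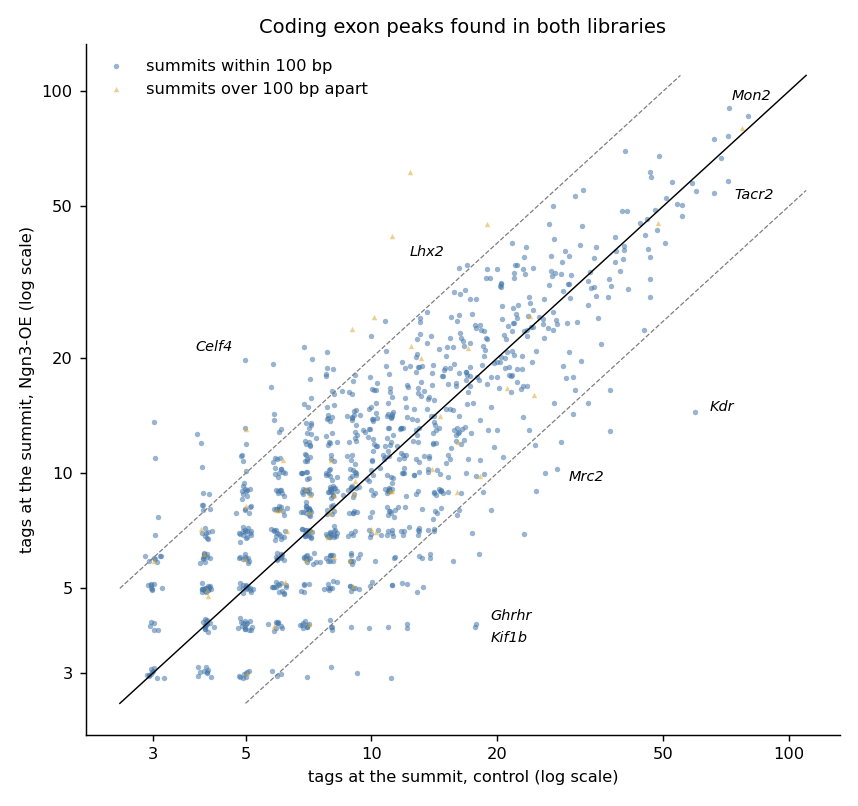
Tags at the summit in control (x axis, log scale) and in Ngn3-OE (y axis, log scale) for the 1054 control coding exon peaks with a counterpart, with points shifted by a small random amount to separate ties and triangles for summits over 100 bp apart. The solid line marks equal tags and the dashed lines 2-fold differences. Most points lie between the dashed lines, and Kdr, with 61 and 15 tags, lies far below them.

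E-box sites were found most often in the peaks seen in Ngn3-OE alone. The E-box consensus, 10 bases built on the core CATCTG, lay within 100 bp of the summit in 41 of 422 Ngn3-OE-only peaks, which is 9.72% (7.06 to 13.0). It was found in 9 of 288 control-only peaks, 3.13% (1.44 to 5.85), and in 50 of 1054 shared peaks, 4.74% (3.54 to 6.21). The difference between the one-library sets was 6.59 percentage points (2.92 to 10.1). Windows of the same length at the middle of 158290 coding exon segments held the consensus in 0.98% of cases, and those at the middle of 152587 introns in 0.75%. The one-library difference was also seen in distal intron peaks, at 5.04% and 2.205%. The Ngn3-OE-only share was higher in coding exons than in introns by 4.68 points (2.18 to 7.90). With the core CATCTG alone this difference was 2.33 points (-1.90 to 6.91), an interval that included 0. The Ngn3-OE-only share of that core was 1.61 times the midpoint share in coding exons and 1.80 times in introns.

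Among stronger one-library peaks, whose −log10 q reached 5, it was found in 14 of 103 from Ngn3-OE, 13.6% (7.63 to 21.8), and in 0 of 66 from control, with an exact interval of 0 to 5.44% and a limit of 4.55% at 3 counts. Nearly all copies could be read as protein code. Of the 42 copies around Ngn3-OE-only summits, 38 lay wholly in coding bases, 34 were centred within 50 bp of the summit, and 33 lay inside the called peak. In the 38 coding copies the 6-base core began at the first base of a codon in 18, at the second in 12 and at the third in 8. The consensus pointed along the gene in 17 of the 42 and against it in 25.

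The 5 Ngn3-OE-only peaks of highest −log10 q with the consensus are shown with 30 bases on each side, on the strand of the gene, with the E-box in capitals.
Abca13, chr11:9269281-9269350, plus strand: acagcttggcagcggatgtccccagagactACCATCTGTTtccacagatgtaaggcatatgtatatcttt
B4galt4, chr16:38767904-38767973, plus strand: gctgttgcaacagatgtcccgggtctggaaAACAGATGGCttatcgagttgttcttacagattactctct
Cyp2ab1, chr16:20312333-20312402, minus strand: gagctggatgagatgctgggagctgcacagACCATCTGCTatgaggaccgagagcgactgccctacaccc
Arrdc5, chr17:56294372-56294441, minus strand: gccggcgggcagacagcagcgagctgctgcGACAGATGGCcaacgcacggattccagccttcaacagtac
Gli3, chr13:15644300-15644369, plus strand: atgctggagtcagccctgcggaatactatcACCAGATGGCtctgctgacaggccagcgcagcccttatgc
At Cyp2ab1 the copy lies outside the called peak, and in the other 4 inside it. In all 5 the consensus lies wholly in coding bases, and at B4galt4, Arrdc5 and Gli3 it points against the gene. The printed stretches of Abca13 and B4galt4 hold a further CATCTG core, read on either strand. The peaks themselves had 14, 8, 9, 12 and 8 tags.

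SOX-type sites showed the opposite order. The letters CCATTGT or CCTTTGT, on either strand, were found in 29 of 288 control-only peaks, 10.1% (6.85 to 14.1), and in 23 of 422 Ngn3-OE-only peaks, 5.45% (3.49 to 8.07). The difference was -4.62 percentage points for Ngn3-OE-only minus control-only (-9.02 to -0.68). With the core letters ATTGT alone it was -2.82 points (-8.90 to 3.01), an interval that included 0. Distal intron peaks gave 12.8% and 7.08%, and 7.23% of coding exon midpoints held the same letters. The midpoint share lies within the intervals of both one-library sets. Of the 31 copies around control-only summits, 21 lay wholly in coding bases and 15 lay inside the called peak, as did 12 of the 23 copies around Ngn3-OE-only summits.

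The 4 control-only peaks of highest −log10 q with these letters are shown in the same way, with the SOX-type site in capitals.
Rnf141, chr7:110821357-110821423, minus strand: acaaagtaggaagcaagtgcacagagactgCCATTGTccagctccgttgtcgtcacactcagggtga
Fgd6, chr10:94044265-94044331, plus strand: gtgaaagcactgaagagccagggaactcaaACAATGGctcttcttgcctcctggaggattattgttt
Rab20, chr8:11454337-11454403, minus strand: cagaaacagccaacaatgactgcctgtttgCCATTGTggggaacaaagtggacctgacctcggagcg
Scap, chr9:110384701-110384767, plus strand: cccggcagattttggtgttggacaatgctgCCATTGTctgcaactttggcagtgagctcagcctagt
The copies at Fgd6, Rab20 and Scap lie in coding bases and that at Rnf141 does not. The Rab20 copy lies outside the called peak, and the other 3 are inside. These peaks had 12, 9, 13 and 9 tags in control.

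The CTCF consensus was most frequent in shared peaks. It was found in 79 of 1054 shared coding exon peaks, 7.495% (5.98 to 9.25), in 8 of 288 control-only peaks, 2.78% (1.21 to 5.40), and in 7 of 422 Ngn3-OE-only peaks, 1.66% (0.67 to 3.39). Coding exon midpoints held it in 0.16% of cases. The shared share was higher than the 5.46% of shared distal intron peaks by 2.04 points (0.58 to 3.80). Shared distal intergenic peaks stood at 7.08% (6.77 to 7.41), near the coding exon share. Counted from the Ngn3-OE list, shared coding exon peaks gave 6.85% (5.39 to 8.56) and shared distal intron peaks 5.47%. After Asb2, the strongest shared peaks with the consensus were at Synpo2l, an actin-associated protein of muscle, with 55 tags in control and 48 in Ngn3-OE, and Vsig10l, with 45 and 44. A bHLH factor gene, Tfap4, had 28 and 26 tags with it in the fourth of 7 coding exons. Strong shared peaks with an E-box consensus, after Kank3, differed in direction. Erich6 had 40 and 71 tags, a ratio of 1.77 (1.19 to 2.68), while Bccip, which binds BRCA2 and CDKN1A, had 38 and 17, a ratio of 0.45 (0.24 to 0.81). Chd1, a chromatin remodeller, had 29 and 30.

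The CRX-type letters GGATTA, which are known as the core site of photoreceptor homeodomain factors, were far rarer in coding exon peaks than in intron peaks. They were found in 82 of 1054 shared coding exon peaks, 7.78% (6.24 to 9.57), against 19.7% of shared distal intron peaks, a difference of -11.9 points (-13.4 to -10.1). Intron peaks held them in 22.0% of those seen in Ngn3-OE alone against 10.6% of those seen in control alone, 11.3 points apart (10.4 to 12.2). In coding exons these shares were 8.53% and 6.94%, 1.59 points apart (-2.64 to 5.47). Ordinary sequence differs too, since 4.47% of coding exon midpoints and 9.07% of intron midpoints held the letters. The AP-1-type letters TGANTCA were found in 4.17% of control-only coding exon peaks, 1.66% of Ngn3-OE-only ones and 4.74% of coding exon midpoints.

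**Figure D4:**
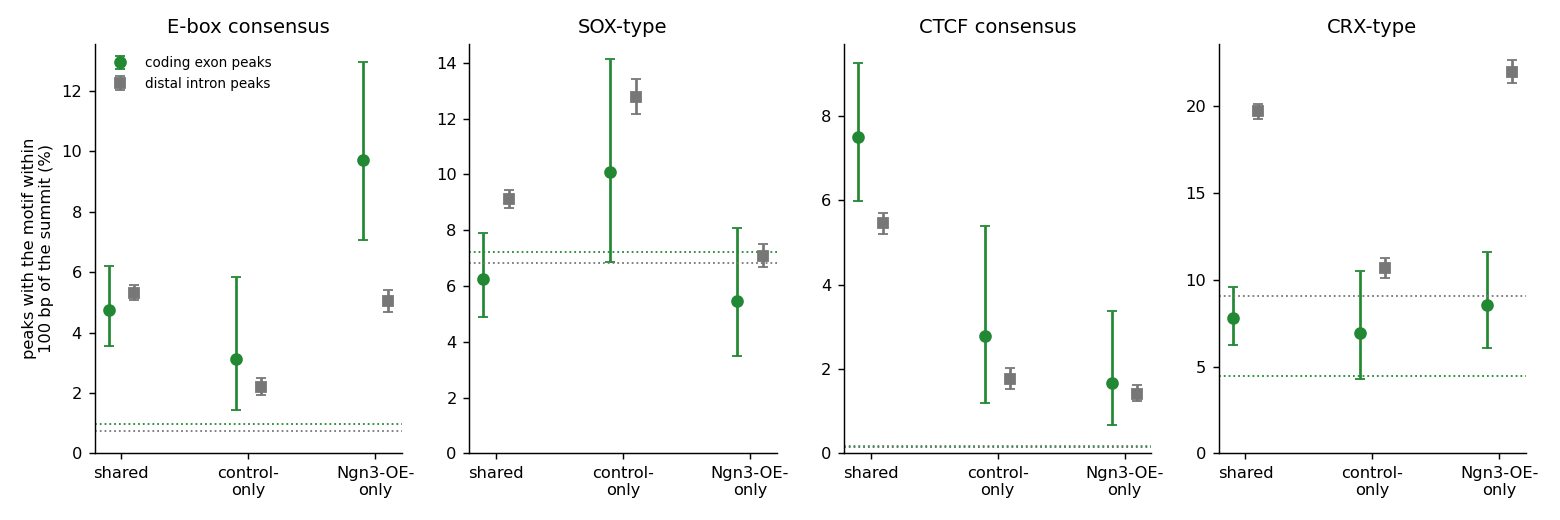
Percent of peaks with each motif within 100 bp of the summit, for shared (control list), control-only and Ngn3-OE-only peaks in coding exons (green circles) and distal introns (grey squares), with exact 95% binomial intervals. Dotted lines give the share at the middle of coding exon segments (green) and introns (grey). The E-box share of Ngn3-OE-only coding exon peaks, 9.72%, is the highest in its panel, and the CRX-type share is lower in coding exons than in introns.

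Loci were spread thinly over genes. A single locus was found in 1257 of the 1537 genes, 2 in 227 and 3 or more in 53. Speg, a kinase of striated muscle, had 6 loci. At the mean of 74.7 loci per Mb, with bases shared by overlapping genes counted once, its coding sequence would hold 0.64. The Speg peaks had 6 to 8 tags, and 2 control and 2 Ngn3-OE peaks had no counterpart.

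Sptbn4 had 4 loci, all shared, with 66, 4, 13 and 13 tags in control and 68, 6, 12 and 16 in Ngn3-OE. Syne1, a nuclear envelope protein, and Dst, a giant cytoskeletal linker, also had 4 loci each, but over 25.5 and 23.2 kb of coding sequence. The strongest Syne1 locus had 24 tags in both libraries, and the strongest Dst locus 14 and 22. Heatr5a, Fnip2 and Fbxo41 also had 4 loci, with fewer tags in sum.

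Retinal transcription factor genes held more loci per base than genes in general. Of 102 listed genes, 73 had coding sequence in the territory and 17 of them (23.3%) had a peak, against 9.24% of 16669 protein-coding genes. This share of genes was not particular to the list. It was 27.0% for extracellular matrix genes, 22.0% for Notch, Hedgehog and Wnt genes and 19.1% for chromatin regulators, but 5.54% for Zfp zinc finger genes and 1.85% for cell cycle genes. The 24 loci of the retinal factors came to 197 per Mb (126 to 293), against 74.4 per Mb over the summed coding sequence of all genes. In control 6 of their 18 peaks were seen in that library alone, and in Ngn3-OE 4 of 17, against 21.5% and 28.9% of all coding exon peaks.

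Prdm13, a factor of amacrine cells, had the highest −log10 q of them, with 20 tags in control and 30 in Ngn3-OE at chr4:21679289-21679585. Lhx2, a LIM homeodomain factor of progenitors and glia, had 16 and 35 tags in coding exon 3 of 5, at chr2:38354708-38354787. This ratio of 2.19 (1.18 to 4.23) was the only one of the 9 shared loci named here whose interval left out 1. The local background at Lhx2 was 2.74 tags in control and 2.70 in Ngn3-OE.

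Mef2d, an activity-dependent factor, had 15 and 20 tags at a locus with a CTCF consensus and 9 and 6 at another. Gli3, an effector of Hedgehog signalling, had 8 and 16 tags in 1 exon and an Ngn3-OE-only peak of 8 tags in another, the E-box peak printed above. Both genes thus carried a pair of loci among the strongest. Myt1l, a neuronal zinc finger factor, had 6 and 12 tags, and Nfib, a nuclear factor I protein, 4 and 8. Tbx3, a T-box factor, had 11 and 7 tags, and Prdm1, a factor of the photoreceptor against bipolar choice, 9 and 11.

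Other lists were described by the same measure or by their strongest loci. Among photoreceptor genes, Cep290, a cilium protein, had 38 tags in both libraries, and Gucy2f, a photoreceptor guanylate cyclase, 14 and 18. Ion channel genes held 47 loci, 115 per Mb (84.2 to 152), with Cacna1a, a calcium channel subunit, at 47 and 50 tags. Genes of the Notch, Hedgehog and Wnt pathways held 15 loci, 125 per Mb (70.1 to 207), an interval that included the density of all genes. Here Notch3 had 16 and 30 tags at its strongest locus and 11 and 19 at the next. Progenitor and glial markers held 5 loci, 105 per Mb (34.0 to 244), among them Kcnj10, the potassium channel of Müller glia, with 21 and 23 tags, and Gfap, a glial filament protein, with 16 and 23. Of the 5 control peaks at these markers 1 had no counterpart, and of the 4 Ngn3-OE peaks 0.

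Zfp zinc finger and cell cycle genes had lower densities, with intervals below that of all genes. Zinc finger genes named Zfp held 27 loci, 39.1 per Mb (25.8 to 56.9). Cell cycle genes held 2 loci, 16.1 per Mb (1.95 to 58.1), both in 1 exon of Aspm. They were a control-only peak of 4 tags and an Ngn3-OE-only peak of 3. Olfactory receptor genes (1 locus, 20.6 per Mb, 0.52 to 115), chromatin regulators (64.5 per Mb), guidance and adhesion genes (85.2), extracellular matrix genes (86.2) and protocadherins (135) had intervals that included the density of all genes. GC content and exon length differ between genes, and their part in these densities was not tested.

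**Figure D5:**
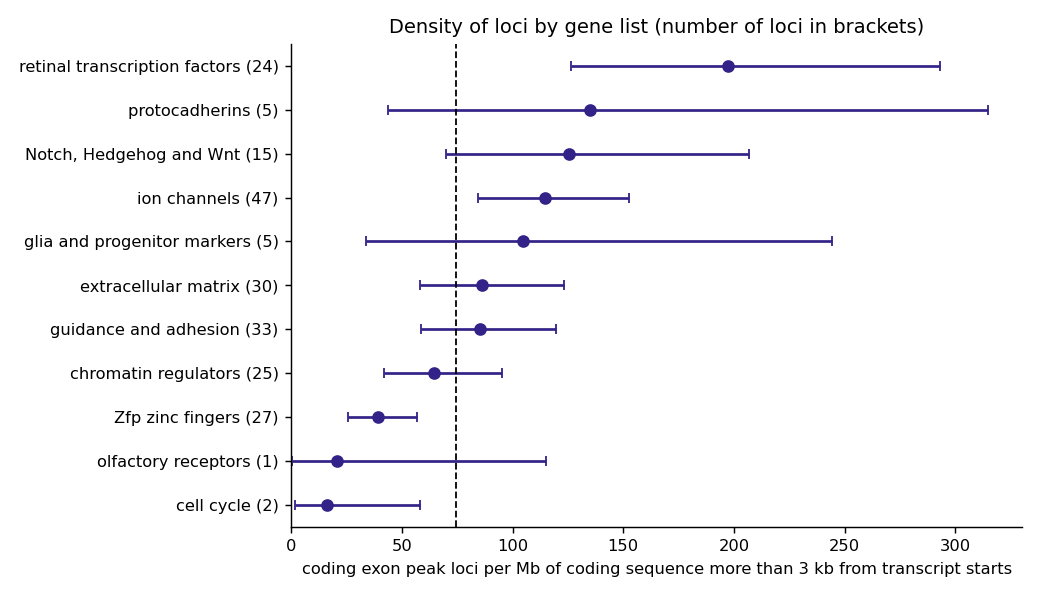
Coding exon peak loci per Mb of coding sequence more than 3 kb from transcript starts, by gene list, with the number of loci in brackets and exact 95% Poisson intervals. The dashed line is the value over all protein-coding genes, 74.4 per Mb. Retinal transcription factors (197 per Mb) and ion channels (115) lie above the line with their intervals, and Zfp zinc fingers (39.1) and cell cycle genes (16.1) below it.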

How the data were processed

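ATAC-seq was measured in 1 control and 1 Ngn3-OE library. Per the labels and the study's methods, the authors trimmed reads (Trimmomatic), aligned them to mm10 (Bowtie2), removed duplicate, mitochondrial and blacklisted reads, kept short fragments, which favours nucleosome-free DNA, and called peaks per library with MACS2. The deposited columns used were the fold enrichment (ratio) at the summit, the −log10 of the p-value and q-value, and the summit offset. The authors' deposited integer score entered no result. Depth is unknown, and tags were not scaled between libraries.

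Tags and local background were solved from fold and −log10 p through the Poisson distribution (largest residual 0.0019, tested on simulated data). Summits were placed on the GENCODE M21 basic annotation. Shared peaks overlap by at least 1 bp. Intervals are exact binomial or Poisson, or Newcombe for differences. The E-box and SOX letters come from the study's motif results on these data and are not independent evidence. Copies (95% identity over 90% of the peak) were searched with blastn 2.17.0.

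The peaks, gene lists and motifs were chosen with earlier results of these data known. Genes were named by rule: the 6 strongest shared peaks, the 5 strongest of each one-library set, the 5 genes with most loci, the 3 largest rank shifts each way and the 10 strongest loci at retinal factors. Other named genes and the tag ratio limits were chosen after values were seen. One gene with many loci, and the density of the list that holds it, are not reported here. The study's RNA-seq was not used here.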

Additional observations from a re-analysis of the deposited data

How the results depend on the processing

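No paired analysis was possible because each group had 1 library, and for the same reason no replicate could be left out. The alternatives that were run kept the order of the E-box and SOX-type shares, but the SOX-type difference was -2.82 points both within 50 bp of the summit and with the core letters, where its interval included 0. With a −log10 q of at least 5 the number of coding exon peaks was 845 in control and 895 in Ngn3-OE, and 766 and 790 more than 10 kb from transcript starts. The comprehensive annotation, chosen after seeing the data, which lists more transcript starts, left 904 and 1008. Densities, CpG shares and named peaks were not recounted on it.

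The share with a counterpart in control was 65.8% with a 50% overlap of both peaks, 75.3% with summits within 100 bp and 92.2% with a −log10 q of at least 5 in the queried list. It was 72.8% with the peak and its counterpart both among the 50000 strongest of their lists. In Ngn3-OE these shares were 60.2%, 68.3%, 88.5% and 73.8%, and 74.3% with the limit in both lists. The log2 ratio of one-library peaks was 0.55 in the main setting and -0.091 among the 50000 strongest peaks of each list. There, 254 peaks had no counterpart among the 50000 strongest of the other list, and no interval was computed. The density ratio to introns was 1.24 in control and 1.25 in Ngn3-OE at 1 kb, and 1.10 and 1.04 at 10 kb. The ratio to intergenic sequence was 2.21 and 2.31 at 1 kb, and 2.01 in Ngn3-OE at 10 kb. The median exon in Ngn3-OE was 188 bp when −log10 q had to reach 5. The E-box difference was 13.6 points under that limit and 12.2 points with at least 6 tags, the last chosen after seeing the data. The rank shift was 0.51 when ranked by tags. The density of loci at cell cycle genes relative to all genes was 0 when −log10 q had to reach 5, and 0 at cell cycle and olfactory receptor genes when shared peaks alone were counted, where few peaks were left. Other causes were not tested. Depth is not given, so how far it limits these shares was not tested.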
